A study of Mus musculus with 12 samples.

Results

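The response of AXL WT mouse breast cancer cells to low oxygen was measured by RNA sequencing in 6 of the 12 libraries of the study, 3 of cells kept at 1% oxygen (hypoxia) and 3 of cells kept at 21% oxygen (normoxia). All libraries were made from MMTV-NIC cells, a line from the mammary tumours of mice in which a mammary promoter drives an activated form of Neu, the rodent ErbB2 receptor, together with Cre recombinase. The other 6 libraries come from AXL KO cells of the same origin, 3 at each oxygen level, and serve here only for the comparison of responses. The 6 libraries were chosen by their titles, because the genotype tag of the AXL WT hypoxia libraries reads AXL KO and that of the AXL KO normoxia libraries reads AXL WT. The time spent at 1% oxygen, the number of clones behind each genotype and whether replicates were separate cultures are not given in the sources used here, and the p-values therefore cover only how these libraries spread, which may be technical.

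Cells sense oxygen through prolyl hydroxylases, encoded by the Egln genes, which mark the alpha subunit of hypoxia-inducible factor (HIF) for destruction by the VHL protein while oxygen is present. At low oxygen the alpha subunit persists, pairs with ARNT and binds the core sequence ACGTG or GCGTG near its targets, which include most glycolytic enzymes, Vegfa and the mitophagy receptor Bnip3. AXL is 1 of the TAM receptors (Tyro3, Axl, Mertk), tyrosine kinases of the cell surface, and binds GAS6.

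Shown are the 250 bases before the RefSeq start (build GRCm38.p6) of 3 glycolysis genes and 2 genes from the mitochondrial and stress lists. They were the called rises with the smallest p-values whose window holds ACGTG or GCGTG and no more than a short stretch of exon. A match in every printed window was thus fixed by the choice. Their transcripts carried the response described next. Capitals mark every ACGTG or GCGTG on either strand (CACGT or CACGC on the strand printed), so that overlapping matches such as CACGTG appear as 1 run. Ldha makes lactate from pyruvate, Pgk1 and Pfkp are glycolytic kinases, Bnip3 directs mitochondria to autophagy and Lonp1 is the mitochondrial protease that degrades a cytochrome oxidase subunit.
Ldha, chr7:46845554-46845803, plus strand: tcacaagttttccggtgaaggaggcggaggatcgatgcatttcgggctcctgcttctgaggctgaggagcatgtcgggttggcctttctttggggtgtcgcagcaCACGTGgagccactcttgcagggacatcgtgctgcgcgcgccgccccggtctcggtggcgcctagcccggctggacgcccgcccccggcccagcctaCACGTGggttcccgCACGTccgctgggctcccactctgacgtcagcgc
Pgk1, chrX:106186850-106187099, plus strand: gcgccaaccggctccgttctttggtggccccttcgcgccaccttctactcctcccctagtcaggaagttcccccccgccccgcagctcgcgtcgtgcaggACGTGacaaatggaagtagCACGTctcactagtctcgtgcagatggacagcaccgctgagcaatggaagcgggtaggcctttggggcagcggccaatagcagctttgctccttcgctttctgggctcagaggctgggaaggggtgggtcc
Pfkp, chr13:6648772-6649021, minus strand: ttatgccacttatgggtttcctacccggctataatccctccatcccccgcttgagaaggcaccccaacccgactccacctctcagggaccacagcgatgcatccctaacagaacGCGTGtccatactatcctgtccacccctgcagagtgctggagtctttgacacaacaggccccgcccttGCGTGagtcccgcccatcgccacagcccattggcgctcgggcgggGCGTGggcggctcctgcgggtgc
Bnip3, chr7:138909507-138909756, minus strand: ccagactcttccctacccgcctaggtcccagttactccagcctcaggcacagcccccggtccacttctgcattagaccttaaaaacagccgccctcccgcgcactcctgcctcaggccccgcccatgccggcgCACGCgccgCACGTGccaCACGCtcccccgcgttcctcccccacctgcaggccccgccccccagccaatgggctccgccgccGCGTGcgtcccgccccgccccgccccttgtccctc
Lonp1, chr17:56626904-56627153, minus strand: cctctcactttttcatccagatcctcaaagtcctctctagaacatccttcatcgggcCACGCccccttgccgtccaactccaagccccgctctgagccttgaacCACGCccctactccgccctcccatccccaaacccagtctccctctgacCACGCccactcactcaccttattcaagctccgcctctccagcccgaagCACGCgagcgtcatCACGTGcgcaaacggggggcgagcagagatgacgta
Counting CACGTG once per strand, the windows held 5, 2, 3, 5 and 6 matches in that order. The Ldha window precedes a RefSeq start that lies 4329 bases from the deposited gene start. The motif was present in 38.6% of all 32851 promoter windows of the same length and in 56.3% of the 10566 windows that belong to tested genes. It was present in 15 of 21 windows of glycolysis genes (71.4%) and in 12 of 23 windows of DNA replication genes (52.2%). Among mitosis genes it was in 14 of 20 windows (70.0%) and among ribosomal protein genes in 18 of 23 (78.3%). A match describes the letters only and says nothing of HIF occupancy, which was not measured.

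The 6 libraries held between 45297267 and 48854016 counts in genes, so depth was nearly even. Values are given as CPM (gene counts relative to library size, the usual expression unit), with library sizes adjusted by TMM, the trimmed mean of M-values, and always in the order of replicates 1, 2 and 3. The normoxia libraries were close to each other, with a median ratio of the highest to the lowest library of 1.122 over genes, against 1.679 among the hypoxia libraries. The biological coefficient of variation was 0.0563 in AXL WT normoxia and 0.367 in AXL WT hypoxia, against 0.0892 and 0.0737 in the AXL KO groups. Hypoxia replicate 1 stood apart from replicates 2 and 3 on the second principal component (−77.6 against 42.2 and 20.7), which carried 14.2% of the variance. The first carried 79.1% and separated the oxygen levels. On it hypoxia replicate 2 lay furthest from normoxia (118.6, against 67.6 and 72.6 for replicates 1 and 3). Mitochondrial ribosomal RNA made up 0.0924%, 0.519% and 0.284% of counts in the hypoxia libraries and between 0.0874% and 0.102% in normoxia. The gene with the most counts was the glycolytic enzyme Pkm in hypoxia replicate 1 (1.04% of counts) and the prostaglandin synthase Ptgs2 in replicates 2 and 3 (2.42% and 1.92%).

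Axl itself checked the labels. It stood at 964, 932 and 1046 CPM in normoxia and 558, 506 and 652 CPM in hypoxia, while the AXL KO libraries held between 1.72 and 3.47 CPM on the scale of all 12 libraries. The WT hypoxia libraries thus carried abundant Axl, as their titles and not their genotype tags say, and their values lay below every normoxia value. The log2 fold change of hypoxia over normoxia was −0.78 ± 0.13 (standard error, SE; adjusted p = 0.00329, edgeR's quasi-likelihood test with Benjamini-Hochberg adjustment; ENSMUSG00000002602, chromosome 7, 25757273 to 25788705, build GRCm38).

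Of the 15453 genes tested, 7600 passed an adjusted p of 0.05 (49.2% called), of which 3922 rose (25.4% of the genes tested) and 3678 fell (23.8%). This fit takes 1 spread per gene for both groups, although their biological coefficients of variation were 0.0563 in normoxia and 0.367 in hypoxia. Its p-values may therefore be too small. All 3 hypoxia libraries lay above all 3 normoxia libraries for 4783 genes (31.0%) and below them for 5062 (32.8%). A list of genes must therefore be read against a background in which about every other gene was called. Where the share that rose lies near 25.4%, or the share that fell near 23.8%, a count does not set its list apart. Scaling by library size alone moved the median of all genes from 0.01 to −0.36 and turned the calls to 2540 higher and 5524 lower, so list medians between 0 and about 0.36 change sign with the scaling. Without hypoxia replicate 1 there were 10302 calls, and without normoxia replicate 1, 2 or 3 there were 4997, 4876 and 4855.

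The enzymes that take up glucose and turn it into lactate rose almost as a block. Of 22 tested genes 21 rose, none fell and 1 was not called, with a median log2 fold change of 2.34 beside 0.01 over all genes, and the list differed little between hypoxia libraries (medians of 2.30, 2.35 and 2.17). The glucose transporter Slc2a1 went from 132, 133 and 150.3 CPM to 906, 1161 and 869 CPM (2.82 ± 0.16, adjusted p = 8.29e-05). Hk1, which traps glucose as glucose-6-phosphate, went from 181, 198 and 191 CPM to 889.7, 1283 and 1071 CPM (2.51 ± 0.16, adjusted p = 0.000115), a wider step than its relative Hk2 (1.33 ± 0.14, adjusted p = 0.000487). In both cases every hypoxia library lay above every normoxia library. Pfkfb3, which makes the allosteric activator of phosphofructokinase, showed the widest step of the list, from 7.29, 6.65 and 7.80 CPM to 924, 1010.4 and 718 CPM (6.93 ± 0.20, adjusted p = 4.68e-05; ENSMUSG00000026773, chromosome 2, 11471433 to 11554077). The 3 hypoxia values lay close together, and none came near normoxia. Its relative Pfkfb4 stayed low, at 7.29, 7.11 and 8.09 CPM and 8.22, 11.9 and 11.2 CPM, and was the gene not called (0.48 ± 0.21, adjusted p = 0.102), though it was without hypoxia replicate 1 (adjusted p = 0.0117).

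Further down the pathway, the subunit Pfkp of phosphofructokinase went from 127, 127 and 140.4 CPM to 1115, 1683 and 1167 CPM (3.33 ± 0.19, adjusted p = 9.64e-05). The aldolase Aldoa went from 1381, 1484 and 1535 CPM to 7846, 7316 and 6419 CPM (2.29 ± 0.13, adjusted p = 7.96e-05). Both were higher in every hypoxia library than in any normoxia library. Gapdh, often used as a reference gene, went from 743, 783 and 813 CPM to 2392, 2476 and 2243 CPM (1.60 ± 0.11, adjusted p = 0.000128), without overlap, and so was not constant between these groups. Pgk1, whose promoter window is printed above, went from 239, 245 and 267 CPM to 1472, 1303 and 1192 CPM (2.40 ± 0.13, adjusted p = 7.34e-05). The enolase Eno2, best known from neurons, went from 17.96, 16.1 and 15.3 CPM to 393, 252 and 246 CPM (4.18 ± 0.23, adjusted p = 8.25e-05), highest in hypoxia replicate 1. Lactate dehydrogenase Ldha stood at 1287, 1339 and 1580.0 CPM and 7221, 7252 and 7502 CPM (2.38 ± 0.13, adjusted p = 7.08e-05), nearly the same in the 3 hypoxia libraries. Pkm, the last kinase of the pathway, rose (2.02 ± 0.12, adjusted p = 9.37e-05), as did Pdk1, which keeps pyruvate out of the mitochondrial cycle (1.95 ± 0.16, adjusted p = 0.000253).

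**Figure D1:**
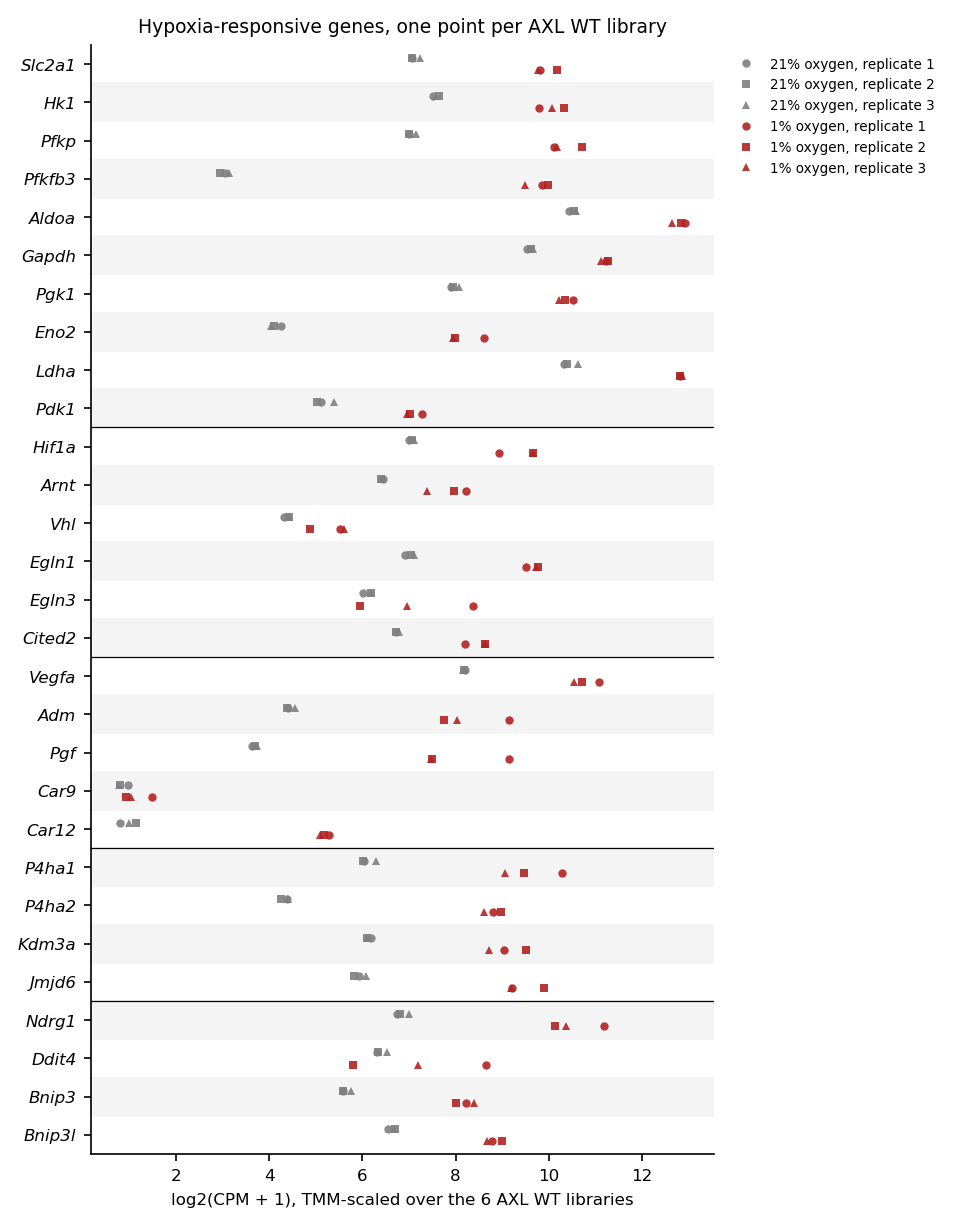
Level of hypoxia-responsive genes in each AXL WT library, as log2(CPM + 1) on the horizontal axis; grey symbols are the 3 libraries at 21% oxygen and red symbols the 3 at 1% oxygen, with circle, square and triangle for replicates 1, 2 and 3. The glycolysis genes in the top block show tight red symbols to the right of the grey ones, while Egln3 and Ddit4 have hypoxia replicate 2 below the normoxia libraries and replicates 1 and 3 above them.

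The parts of the oxygen-sensing machinery moved as well. Of 10 tested HIF subunits and oxygen sensors 6 rose and none fell (1 without hypoxia replicate 1; median 1.20). Hif1a, the oxygen-regulated subunit, went from 126, 132 and 137 CPM to 485, 806 and 814 CPM (2.41 ± 0.22, adjusted p = 0.000341), with replicate 1 the lowest of the hypoxia libraries. Its partner Arnt went from 86.3, 82.8 and 84.2 CPM to 299, 248.6 and 167 CPM (1.50 ± 0.21, adjusted p = 0.00174). Epas1, the gene of HIF-2 alpha, was low but measured at 3.69, 4.12 and 3.31 CPM and 3.67, 3.42 and 2.79 CPM, with overlapping groups (−0.17 ± 0.24, adjusted p = 0.578). Of these alpha subunit genes, only Hif1a was called. Egln1, the main prolyl hydroxylase, went from 119, 129.9 and 137 CPM to 731, 868 and 847 CPM (2.67 ± 0.13, adjusted p = 6.09e-05), clear of normoxia in each library. Egln3, another hydroxylase and a known HIF target, read 63.0, 72.0 and 71.9 CPM in normoxia and 332, 61.1 and 123.4 CPM in hypoxia. Replicate 2 lay below all normoxia libraries and replicate 1 far above them, and the gene was not called (1.32 ± 0.55, adjusted p = 0.085). It was called without replicate 2 (1.71, adjusted p = 0.0168), by DESeq2, by voom with a weight per group and over all 12 libraries. The fit of all 12 takes 1 spread for all groups, which is narrower than that of the AXL WT hypoxia libraries. Without replicates 2 and 3, which leaves 1 hypoxia library, the log2 fold change was 2.25. Vhl (1.02 ± 0.21, adjusted p = 0.00777), the HIF inhibitor Cited2 (1.77 ± 0.15, adjusted p = 0.000265) and Siah2, a ligase that targets the hydroxylases (1.07 ± 0.19, adjusted p = 0.00412), rose. The call of Vhl ended when libraries were scaled by size alone.

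Secreted angiogenic factors rose more unevenly across the libraries. Of 13 tested genes 8 rose and 2 fell, or 4 without hypoxia replicate 2 (median 2.04; medians per hypoxia library 1.88, 1.07 and 0.70). Vegfa, the main endothelial growth factor, went from 292, 291 and 285 CPM to 2174, 1673 and 1501 CPM (2.62 ± 0.16, adjusted p = 0.000107). Its relative Pgf went from 11.4, 11.97 and 12.3 CPM to 570.0, 179 and 177 CPM (4.70 ± 0.53, adjusted p = 0.000771), and adrenomedullin, Adm, from 20.2, 19.8 and 22.5 CPM to 565, 216 and 260.0 CPM (4.06 ± 0.39, adjusted p = 0.000442). For all of them replicate 1 was the highest hypoxia library and no hypoxia value reached down to normoxia. The reverse order held for Vegfd, with 3.95, 3.85 and 4.62 CPM in normoxia and 20.5, 98.7 and 54.1 CPM in hypoxia (3.80 ± 0.55, adjusted p = 0.0019), and for the secreted hormone Stc1, with 0.559, 0.544 and 0.712 CPM and 17.4, 131 and 65.3 CPM (6.87 ± 0.81, adjusted p = 0.000915). In both, replicate 2 was the highest and replicate 1 the lowest hypoxia library. Vegfb, a family member that is not a classical HIF target, fell (−0.84 ± 0.16, adjusted p = 0.00506).

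Of 10 tested enzymes that modify collagen 7 rose and 2 fell, or 1 without normoxia replicate 1 or 2 (median 1.51). The prolyl 4-hydroxylase subunits led them. P4ha1 went from 64.3, 63.9 and 76.9 CPM to 1241, 705 and 534 CPM (3.60 ± 0.33, adjusted p = 0.000365) and P4ha2 from 19.9, 18.1 and 20.2 CPM to 447, 505 and 391.7 CPM (4.53 ± 0.15, adjusted p = 4.68e-05), without overlap. The lysyl hydroxylases Plod1 (1.48 ± 0.11, adjusted p = 0.000151) and Plod3 (1.54 ± 0.17, adjusted p = 0.000644) rose. Among the lysyl oxidases, which crosslink collagen, Loxl4 went from 116, 110.3 and 133 CPM to 398, 1211 and 1174 CPM (2.95 ± 0.42, adjusted p = 0.00168), lowest in replicate 1, whereas Loxl3 fell (−1.03 ± 0.13, adjusted p = 0.00114).

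Of the 8 tested genes for acid and carbon dioxide handling 4 rose and none fell, or 1 without hypoxia replicate 1 or 2 (median 0.71). The membrane carbonic anhydrase Car12 went from 0.727, 1.19 and 0.968 CPM to 37.7, 35.1 and 32.9 CPM (5.19 ± 0.24, adjusted p = 6.09e-05). Car9, a textbook HIF target and the usual partner of Car12 in hypoxic tumours, stayed at 0.932, 0.719 and 0.712 CPM in normoxia and 1.76, 0.886 and 1.03 CPM in hypoxia. Its groups overlapped and it was not called (0.64 ± 0.35, adjusted p = 0.175). In these cells the carbonic anhydrase with a clear step was therefore Car12 and not Car9.

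Genes that adapt or remove mitochondria rose in part (7 of 10 tested rose and none fell, or 1 without hypoxia replicate 3, median 0.98). The mitophagy receptors Bnip3, from 46.9, 47.0 and 53.3 CPM to 300.2, 255 and 336 CPM (2.60 ± 0.15, adjusted p = 8.65e-05), and Bnip3l, from 92.95, 103 and 102 CPM to 439, 507 and 409 CPM (2.18 ± 0.13, adjusted p = 9.62e-05), were among them. No hypoxia library reached the normoxia range for either. The respiratory supercomplex factor Higd1a (2.33 ± 0.16, adjusted p = 0.000151) and the protease Lonp1 (1.35 ± 0.10, adjusted p = 0.000176) rose as well. Nuclear genes of the respiratory chain did not move as a group. Of 24 tested 1 rose (Cox4i1, 0.58 ± 0.12, adjusted p = 0.00635), 2 fell and 21 were not called, with a median of 0.09. That is far fewer calls than the 49.2% over all genes, and the single rise ended when libraries were scaled by size alone, which gave 10 falls. Without normoxia replicate 1, 2 or 3 or hypoxia replicate 3 none of these genes was called, and without hypoxia replicate 1 there were 4 rises and 4 falls.

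Of 7 tested genes encoded by mitochondrial DNA 4 fell and 1 rose, or 3 without hypoxia replicate 1 (median −0.78). The list holds 13 such genes, and the others had too few counts to be tested. Reads that fit several places were not counted, and their effect on these counts was not tested. The cytochrome b gene mt-Cytb went from 2416, 2275 and 1989.6 CPM to 793, 489 and 776 CPM (−1.70 ± 0.21, adjusted p = 0.00103) and mt-Nd5 of complex I from 1426, 1302 and 1172 CPM to 561, 274 and 468 CPM (−1.58 ± 0.26, adjusted p = 0.00297). In contrast, mt-Co1 of cytochrome oxidase went from 4032, 3862 and 3455 CPM to 6778, 8069 and 6518 CPM (0.91 ± 0.13, adjusted p = 0.00177). None of the 3 genes had overlapping groups, so transcripts of 1 small genome went in opposite directions. The share of mitochondrial ribosomal RNA also differed between these libraries, as given above, and its part in this was not tested.

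Carbon stores and lipid genes changed gene by gene. Over all genes tested 25.4% rose and 23.8% fell, and the counts are to be read beside these shares. Of 12 tested glycogen genes 6 rose and none fell, or 1 without hypoxia replicate 1 (median 0.51). They included the branching enzyme Gbe1, from 14.1, 14.9 and 18.1 CPM to 127, 132 and 166 CPM (3.17 ± 0.18, adjusted p = 8.25e-05), and Pgm1, which links glycogen to glycolysis (2.43 ± 0.13, adjusted p = 6.89e-05). Synthesis and breakdown enzymes were both among them, with Gys1 (1.44 ± 0.28, adjusted p = 0.00614) and the phosphorylase Pygl (2.88 ± 0.41, adjusted p = 0.00178). Of 24 genes of the TCA cycle and glutamine use 3 rose and 6 fell, or 3 without normoxia replicate 1, 2 without normoxia replicate 3 and 12 without hypoxia replicate 1. The cytosolic isocitrate dehydrogenase Idh1 went from 98.6, 111 and 99.9 CPM to 366, 593 and 768 CPM (2.48 ± 0.27, adjusted p = 0.000644) and pyruvate carboxylase, Pcx, from 66.0, 65.3 and 74.2 CPM to 178, 738 and 672 CPM (2.95 ± 0.50, adjusted p = 0.00336), each lowest in hypoxia replicate 1. Fumarase, Fh1 (−0.93 ± 0.20, adjusted p = 0.00809), and glutamate dehydrogenase, Glud1 (−0.58 ± 0.11, adjusted p = 0.00557), fell. Of 26 sterol and fatty acid genes 7 rose and 4 fell (median 0.23), which scaling by library size turned to 5 rises and 9 falls. Acetyl-CoA carboxylase, Acaca, the rate-limiting enzyme of fatty acid synthesis (−1.52 ± 0.13, adjusted p = 0.000282), and fatty acid synthase, Fasn (−0.98 ± 0.14, adjusted p = 0.00189), fell, as did mevalonate kinase, Mvk (−1.42 ± 0.17, adjusted p = 0.000901), whereas lanosterol synthase, Lss, rose (1.78 ± 0.12, adjusted p = 0.000139).

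Of 11 tested lipid droplet genes 5 rose and 4 fell, or 2 without normoxia replicate 1, 2 or 3. The lipolysis inhibitor Hilpda went from 6.19, 5.44 and 6.21 CPM to 35.7, 35.3 and 47.8 CPM (2.73 ± 0.19, adjusted p = 0.000138). The droplet coat gene Plin2, also a known HIF target in other cells, went the other way, from 258, 262 and 280.0 CPM to 135, 132 and 121 CPM (−1.04 ± 0.11, adjusted p = 0.000565). Neither gene had overlapping groups. Lpin1, a phosphatidate phosphatase, rose (2.32 ± 0.13, adjusted p = 7.96e-05).

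Of 16 histone and DNA demethylases that use oxygen as a substrate 12 rose and 2 fell (median 1.35). Kdm3a went from 71.4, 67.8 and 67.4 CPM to 524, 729.5 and 419 CPM (3.02 ± 0.22, adjusted p = 0.000162) and Jmjd6 from 59.6, 55.4 and 66.0 CPM to 589, 958 and 583 CPM (3.56 ± 0.24, adjusted p = 0.000129). Both were clear of normoxia and highest in replicate 2. Kdm4b (2.16 ± 0.12, adjusted p = 7.34e-05) and Kdm6b (2.07 ± 0.12, adjusted p = 9.24e-05) rose, while Kdm4a (−0.86 ± 0.12, adjusted p = 0.00177) and Kdm2b (−0.94 ± 0.21, adjusted p = 0.00998) fell. Relatives within the Kdm4 family thus differed in sign.

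Of 14 tested inhibitors of mTORC1 and general hypoxia stress genes 8 rose and 1 fell, or none without normoxia replicate 1, 2 or 3 and 3 without hypoxia replicate 1 (median 0.96). The stress gene Ndrg1 went from 106, 110.2 and 127 CPM to 2339, 1129 and 1316 CPM (3.80 ± 0.30, adjusted p = 0.000231), highest in replicate 1 and clear of normoxia in all. The MYC antagonist Mxi1 (2.51 ± 0.16, adjusted p = 0.000107), the clock-linked repressor Bhlhe40 (2.53 ± 0.38, adjusted p = 0.0021) and Sesn1 (2.88 ± 0.13, adjusted p = 6.09e-05) rose. Ddit4, the best-known hypoxic inhibitor of mTORC1, read 79.0, 79.9 and 91.7 CPM in normoxia and 399.6, 54.3 and 144 CPM in hypoxia. As with Egln3, replicate 1 was far above normoxia and replicate 2 below it, and the gene was not called (1.26 ± 0.62, adjusted p = 0.136). It was called without replicate 2 (1.70, adjusted p = 0.0191). Without replicates 2 and 3, which leaves 1 hypoxia library, the log2 fold change was 2.24. Its relative Ddit4l rose, at 19.1, 20.5 and 20.4 CPM and 272, 42.5 and 132 CPM (2.90 ± 0.60, adjusted p = 0.00749), with the same order of libraries.

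Genes of DNA replication and mitosis fell in all 3 hypoxia libraries. Of 30 tested replication genes 27 fell and 1 rose (median −1.96, medians per hypoxia library −2.18, −1.76 and −1.94), and all 24 tested mitosis genes fell (median −2.27, −2.00, −2.26 and −2.20). The helicase subunits Mcm2, from 136, 142 and 141 CPM to 26.6, 28.0 and 25.9 CPM (−2.38 ± 0.11, adjusted p = 6.09e-05), and Mcm6, from 329, 371 and 337 CPM to 56.7, 60.9 and 59.2 CPM (−2.55 ± 0.12, adjusted p = 6.09e-05), were nearly equal in the hypoxia libraries. The polymerase gene Pole went from 96.6, 91.1 and 86.3 CPM to 8.80, 9.49 and 9.40 CPM (−3.31 ± 0.13, adjusted p = 5.33e-05). The 3 hypoxia libraries lay close together for these genes. The licensing factor Cdc6 (−3.42 ± 0.29, adjusted p = 0.000288) and the ribonucleotide reductase subunit Rrm2 (−3.58 ± 0.22, adjusted p = 0.000107) fell by a wider margin. Pcna, the sliding clamp, read 164, 182 and 162 CPM and 57.3, 146 and 85.2 CPM, without overlap but with replicate 2 near normoxia, and was not called (−0.82 ± 0.32, adjusted p = 0.067). It was called lower without that library (−1.26, adjusted p = 0.0045), by library size alone, by DESeq2 and limma-voom, with the replicate block and over all 12 libraries. The last of these fits shares 1 spread between groups that differ in it, as does the main fit. The 1 replication gene that rose was Gins3 (0.63 ± 0.16, adjusted p = 0.0164), a call that ended without normoxia replicate 1, 2 or 3 (adjusted p = 0.0729, 0.0643 and 0.0876) and under scaling by library size.

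Among mitosis genes, the proliferation marker Mki67 went from 362, 334 and 321 CPM to 92.5, 98.0 and 70.9 CPM (−1.96 ± 0.15, adjusted p = 0.000221) and the spindle gene Nusap1 from 52.9, 62.2 and 56.4 CPM to 6.86, 5.74 and 6.95 CPM (−3.13 ± 0.16, adjusted p = 6.73e-05). Cyclin A2, Ccna2, went from 167, 185 and 188 CPM to 19.96, 9.91 and 16.8 CPM (−3.53 ± 0.27, adjusted p = 0.000202). No hypoxia library reached the normoxia range for any of them. Survivin, Birc5, fell as well (−2.92 ± 0.16, adjusted p = 7.34e-05). The kinesin Cenpe changed least, from 189.8, 171 and 184 CPM to 52.0, 135 and 79.2 CPM (−1.03 ± 0.32, adjusted p = 0.034), and was not called without normoxia replicate 1, 2 or 3 (adjusted p = 0.0833, 0.07 and 0.0826) or hypoxia replicate 3 (0.114). In bulk samples fewer dividing cells and less of these RNAs per cell cannot be told apart.

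Of 16 tested G1 genes 6 rose and 6 fell. Cyclin D1, Ccnd1, which drives entry into the cycle, went from 1992, 1904 and 2218 CPM to 292, 102 and 177 CPM (−3.42 ± 0.38, adjusted p = 0.000707) and its partner Cdk4 from 213, 227 and 219 CPM to 85.6, 77.6 and 108 CPM (−1.28 ± 0.15, adjusted p = 0.000869). Myc went from 73.9, 66.3 and 86.9 CPM to 19.0, 17.6 and 16.5 CPM (−2.10 ± 0.15, adjusted p = 0.000163). These 3 were lower in each hypoxia library. Several CDK inhibitors went up. Cdkn1a (p21) went from 101, 98.3 and 106 CPM to 378, 456 and 376 CPM (1.99 ± 0.13, adjusted p = 0.000107). Cdkn1b (p27) went from 69.5, 70.2 and 62.3 CPM to 184, 184 and 206 CPM (1.50 ± 0.12, adjusted p = 0.000214). Cdkn2a went from 12.2, 12.9 and 14.6 CPM to 36.2, 82.5 and 64.7 CPM (2.21 ± 0.30, adjusted p = 0.00153). Their relative Cdkn2b, given further below, rose as well. Ribosomal protein genes served as a contrast, since of 32 tested 1 rose, 2 fell and 29 were not called (median 0.07), although scaling by library size gave 17 falls. Without normoxia replicate 1, 2 or 3 or hypoxia replicate 3 none of them fell, and without hypoxia replicate 3 there were 3 rises.

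**Figure D2:**
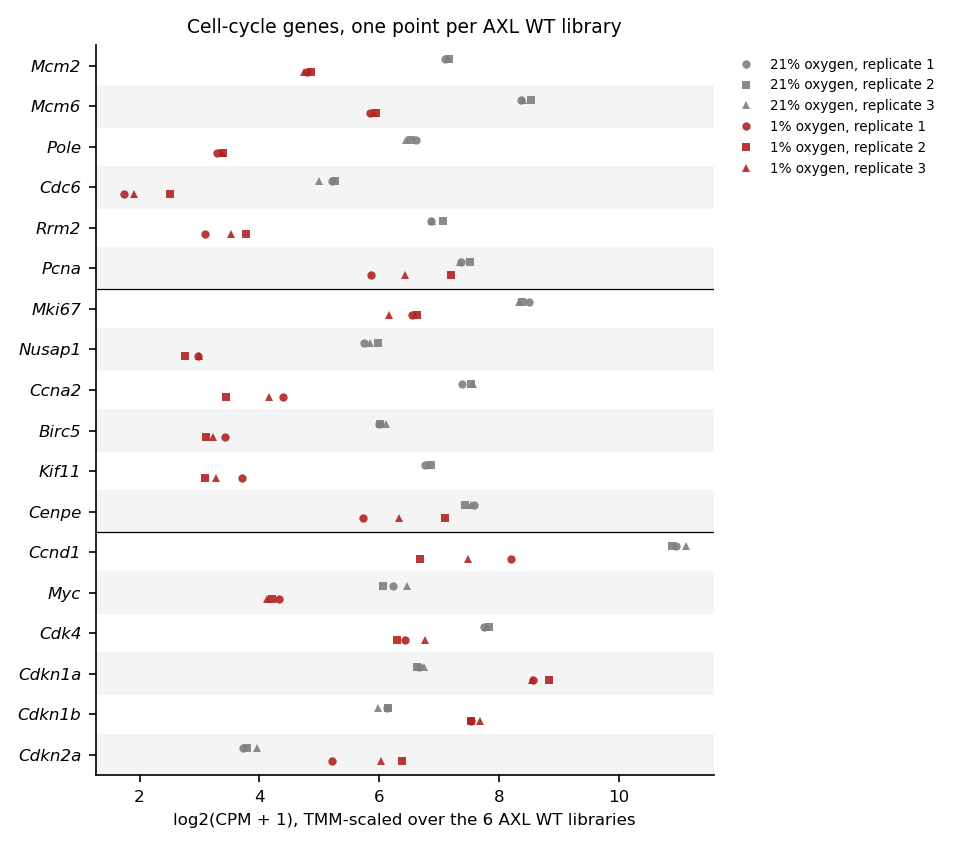
Level of replication genes (top block), mitosis genes (middle) and G1 regulators (bottom) in each AXL WT library, as log2(CPM + 1), with grey for 21% oxygen and red for 1% oxygen and circle, square and triangle for replicates 1, 2 and 3. Red symbols lie to the left of grey for every gene but the CDK inhibitors Cdkn1a, Cdkn1b and Cdkn2a at the bottom, and Pcna and Cenpe have replicate 2 nearest to normoxia.

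Among amino-acid stress genes controlled by ATF4 6 rose and 11 fell of 25 tested (median −0.57). The cystine transporter Slc7a11 went from 115, 90.8 and 120.4 CPM to 10.97, 10.6 and 15.8 CPM (−3.12 ± 0.22, adjusted p = 0.00015), the mitochondrial serine enzyme Shmt2 from 395, 366 and 435 CPM to 51.4, 58.5 and 64.5 CPM (−2.78 ± 0.14, adjusted p = 6.73e-05) and asparagine synthetase, Asns, from 434, 419 and 476 CPM to 111, 152 and 146 CPM (−1.70 ± 0.15, adjusted p = 0.000341). All 3 were lower in every hypoxia library. Trib3, an ATF4 target and inhibitor, fell too (−2.04 ± 0.22, adjusted p = 0.000617). Against that, the stress cofactor Nupr1 went from 102, 82.8 and 117 CPM to 907, 1593 and 1004 CPM (3.54 ± 0.27, adjusted p = 0.000185) and Atf3 rose (2.38 ± 0.22, adjusted p = 0.000368). The oxidase Ero1l, also a known HIF target, went from 122.7, 116 and 132 CPM to 1799.7, 629 and 609.7 CPM (3.03 ± 0.45, adjusted p = 0.002), with replicate 1 well above the rest. The median in replicate 1 was nearer to 0 than in the others (−0.12, −0.92 and −0.82).

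Chaperones of the endoplasmic reticulum (ER) moved little. Of 20 tested 7 rose and none fell (median 0.34), but 1 rose without normoxia replicate 1 and 3 without replicate 2 or 3, and scaling by library size gave 1 rise and 5 falls. The main ER chaperone Hspa5 read 999, 1137 and 1012 CPM in normoxia and 1526, 2575 and 1752 CPM in hypoxia (0.89 ± 0.20, adjusted p = 0.0107). The groups did not overlap, yet the call ended without normoxia replicate 1 or 3 (adjusted p = 0.0515 and 0.053).

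Of 18 tested cytosolic and mitochondrial heat shock genes 11 rose and 2 fell (median 0.99; 0.45, 1.41 and 0.89 per library). The rises numbered 7 without normoxia replicate 1 or 3, and the falls 4 without hypoxia replicate 2 and 5 by library size alone. The HSP110 family members Hspa4l, from 538, 493 and 514 CPM to 4541, 8675 and 6755 CPM (3.69 ± 0.25, adjusted p = 0.000139), and Hsph1, from 184, 186 and 179 CPM to 1721, 2848 and 2020.5 CPM (3.58 ± 0.21, adjusted p = 9.67e-05), were prominent. The inducible Hsp70 gene Hspa1b went from 13.7, 15.4 and 12.8 CPM to 144, 472 and 279.6 CPM (4.42 ± 0.44, adjusted p = 0.000487), although its near-identical copy Hspa1a makes its count uncertain, since reads that fit several places were not counted. In each of these replicate 2 was the highest and replicate 1 the lowest hypoxia library, and all lay above normoxia. The heat shock factor gene Hsf1 (−0.67 ± 0.15, adjusted p = 0.00928) and the mitochondrial cochaperonin Hspe1 (−0.83 ± 0.14, adjusted p = 0.00301) fell.

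Redox, p53 and cell death genes had no shared direction. Their counts stand beside the 25.4% of all genes that rose and the 23.8% that fell. Of 19 NRF2 and glutathione genes 4 rose (1 without normoxia replicate 1, 2 or 3) and 5 fell. Malic enzyme, Me1, went from 60.3, 65.7 and 69.2 CPM to 820.1, 1219.8 and 1339 CPM (4.11 ± 0.22, adjusted p = 7.34e-05), whereas thioredoxin reductase, Txnrd1, fell (−1.14 ± 0.14, adjusted p = 0.00115). Gclc, which limits glutathione synthesis, read 59.7, 54.0 and 61.9 CPM and 274, 106 and 106 CPM (1.47 ± 0.38, adjusted p = 0.0173), a rise that was not called without normoxia replicate 1, 2 or 3 (adjusted p = 0.0639, 0.0709 and 0.0638). Of 18 p53 targets 6 rose and 7 fell, or 4 without normoxia replicate 1, 2 or 3. Mdm2, the p53 ligase, rose (1.10 ± 0.16, adjusted p = 0.00206) while Trp53 itself fell (−0.86 ± 0.11, adjusted p = 0.00107). Of 14 BCL2 family genes 2 rose (1 when any library but hypoxia replicate 2 was left out) and 4 fell, and the survival gene Bcl2 went from 57.5, 54.9 and 56.2 CPM to 10.7, 1.88 and 2.63 CPM (−3.47 ± 0.65, adjusted p = 0.00493), lower in all hypoxia libraries and lowest in replicates 2 and 3.

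The oncogene of the model was not stable across the hypoxia libraries. Erbb2 read 1419.9, 1274 and 1167 CPM in normoxia and 2634, 146 and 396 CPM in hypoxia. Replicate 1 was above and replicates 2 and 3 were below every normoxia library, so no call was made (−0.28 ± 0.91, adjusted p = 0.816). The log2 fold change was −2.27 without replicate 1, which was called (adjusted p = 0.00363), and 1.02 without replicates 2 and 3, which leaves 1 hypoxia library. Counts at Erbb2 may include reads from the Neu transgene, which cannot be told apart from the mouse gene here. Of 11 tested ERBB receptors and ligands 2 rose and 4 fell, or 1 and 1 without normoxia replicate 1, 2 or 3, and 1 rose without hypoxia replicate 2 or 3. Egfr went from 0.466, 0.311 and 0.402 CPM to 2.66, 12.02 and 4.71 CPM (4.03 ± 0.62, adjusted p = 0.00233) at a low level, while the ligand Nrg2 fell (−1.82 ± 0.35, adjusted p = 0.00541).

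Targets and brakes of ERK signalling were also mixed (2 rose and 5 fell of 13, or 9 fell without hypoxia replicate 1 and 3 without hypoxia replicate 3). The stress gene Ier3 went from 170.2, 162 and 185 CPM to 2028, 1662 and 2131 CPM (3.49 ± 0.15, adjusted p = 6.09e-05). The ERK-dependent transcription factor Etv5 went from 89.8, 85.5 and 99.8 CPM to 36.1, 7.30 and 11.7 CPM (−2.32 ± 0.56, adjusted p = 0.0132), a fall that was not called without hypoxia replicate 3 (adjusted p = 0.0573). Of 17 AP-1 and EGR genes 7 rose and 3 fell. Jun, from 44.3, 46.7 and 47.5 CPM to 296, 418 and 340.0 CPM (2.93 ± 0.16, adjusted p = 7.96e-05), and Maff, from 32.2, 33.4 and 39.3 CPM to 486, 325 and 221 CPM (3.30 ± 0.30, adjusted p = 0.000349), rose without overlap, and Fos rose at a low level (3.00 ± 0.38, adjusted p = 0.00115). Fosl1 (−2.01 ± 0.24, adjusted p = 0.000892) and Egr1 (−1.82 ± 0.22, adjusted p = 0.000917) fell, so members of the same dimer family went both ways. Of 17 YAP and TEAD targets 7 rose and 3 fell (7 without hypoxia replicate 1), with Ccn1 (2.00 ± 0.20, adjusted p = 0.000487) and tissue factor, F3 (2.14 ± 0.32, adjusted p = 0.00218), among the rises and the ectonucleotidase Nt5e (−2.60 ± 0.49, adjusted p = 0.0052) among the falls.

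Beside Axl, the other TAM receptors and the ligand Pros1 were called. Mertk went from 11.4, 13.0 and 11.8 CPM to 86.6, 68.0 and 52.0 CPM (2.51 ± 0.21, adjusted p = 0.000283). Pros1, protein S, which binds Mertk and Tyro3, went from 30.3, 30.9 and 31.9 CPM to 65.7, 363 and 153 CPM (2.64 ± 0.57, adjusted p = 0.00836). Both were above normoxia in each library, Mertk highest in replicate 1 and Pros1 highest in replicate 2. Tyro3 fell slightly, from 19.4, 20.2 and 19.3 CPM to 14.8, 11.4 and 14.7 CPM (−0.53 ± 0.17, adjusted p = 0.0374), and lost the call without normoxia replicate 1, 2 or 3 (adjusted p = 0.112, 0.13 and 0.11). Axl and Mertk, relatives with shared ligands, therefore went in opposite directions.

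The prostaglandin pathway held the gene with the most counts of hypoxia replicates 2 and 3. Ptgs2, the inducible cyclooxygenase that starts prostaglandin synthesis, went from 176, 146 and 203 CPM to 10638, 29394 and 20337 CPM (6.84 ± 0.44, adjusted p = 0.000116; ENSMUSG00000032487, chromosome 1, 150100031 to 150108227). Every hypoxia value was far above normoxia, and replicate 1 was the lowest of them. The phospholipase Pla2g4a, which frees the substrate of Ptgs2, went from 82.1, 85.3 and 92.6 CPM to 309.5, 585 and 491 CPM (2.41 ± 0.24, adjusted p = 0.000466) and the constitutive Ptgs1 rose (2.28 ± 0.33, adjusted p = 0.00187). The prostaglandin uptake carrier Slco2a1 went the other way, from 219.6, 206 and 255 CPM to 72.3, 49.1 and 52.7 CPM (−1.97 ± 0.18, adjusted p = 0.000393). Of 10 tested prostaglandin genes 3 rose, namely Ptgs2, Pla2g4a and Ptgs1, and 2 fell.

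Of 21 tested cytokines and chemokines 10 rose and 4 fell (median 0.80), and 6 rose without normoxia replicate 2 or 3, while 2 fell without normoxia replicate 1, 2 or 3. The neutrophil-attracting chemokines Cxcl3, from 12.4, 9.06 and 16.9 CPM to 242, 227 and 197 CPM (4.12 ± 0.26, adjusted p = 0.000107), Cxcl5, from 21.4, 18.2 and 26.7 CPM to 94.0, 93.7 and 132 CPM (2.27 ± 0.21, adjusted p = 0.000397), and Cxcl2, from 28.0, 26.1 and 35.0 CPM to 505, 179 and 147 CPM (3.22 ± 0.49, adjusted p = 0.00228), rose in every library. The granulocyte growth factor Csf3 fell (−1.39 ± 0.24, adjusted p = 0.00348). Il11 rose from below 1 CPM to 1.28, 13.2 and 14.1 CPM, low in replicate 1 (4.44 ± 0.92, adjusted p = 0.00744). Of 15 NF-kappaB feedback genes 4 rose and 1 fell, or 7 and 4 without hypoxia replicate 1. Tnfaip3 went from 10.9, 10.3 and 10.1 CPM to 97.3, 419 and 128 CPM (4.36 ± 0.59, adjusted p = 0.00151) and Nfkbia from 47.6, 50.5 and 48.2 CPM to 602, 213 and 171 CPM (2.75 ± 0.48, adjusted p = 0.0037). The former was highest in replicate 2 and the latter in replicate 1. Nfkbie fell (−1.15 ± 0.23, adjusted p = 0.00605).

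Of 24 tested interferon-stimulated genes 4 rose, or 2 without normoxia replicate 1, 2 or 3, and 13 fell (median −1.27). The RNA sensor Ifih1 went from 8.15, 10.2 and 7.91 CPM to 1.16, 1.46 and 2.04 CPM (−2.49 ± 0.29, adjusted p = 0.000858) and the antiviral kinase Eif2ak2 from 54.0, 53.9 and 52.7 CPM to 11.2, 8.66 and 20.3 CPM (−2.00 ± 0.31, adjusted p = 0.00243). Tetherin, Bst2, fell (−2.02 ± 0.26, adjusted p = 0.00116), and the groups of all 3 genes were apart. Mx2 rose at a low level (2.76 ± 0.38, adjusted p = 0.00158). Of 17 genes of MHC class I presentation 7 rose and 4 fell. The class I gene H2-K1 (0.96 ± 0.11, adjusted p = 0.00087) and the nonclassical H2-T23 (2.41 ± 0.22, adjusted p = 0.000353) rose, while the immunoproteasome subunit Psmb10 (−1.95 ± 0.20, adjusted p = 0.000533) and the peptide trimmer Erap1 (−1.83 ± 0.16, adjusted p = 0.000284) fell. MHC genes resemble each other in sequence, so their counts are uncertain.

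**Figure D3:**
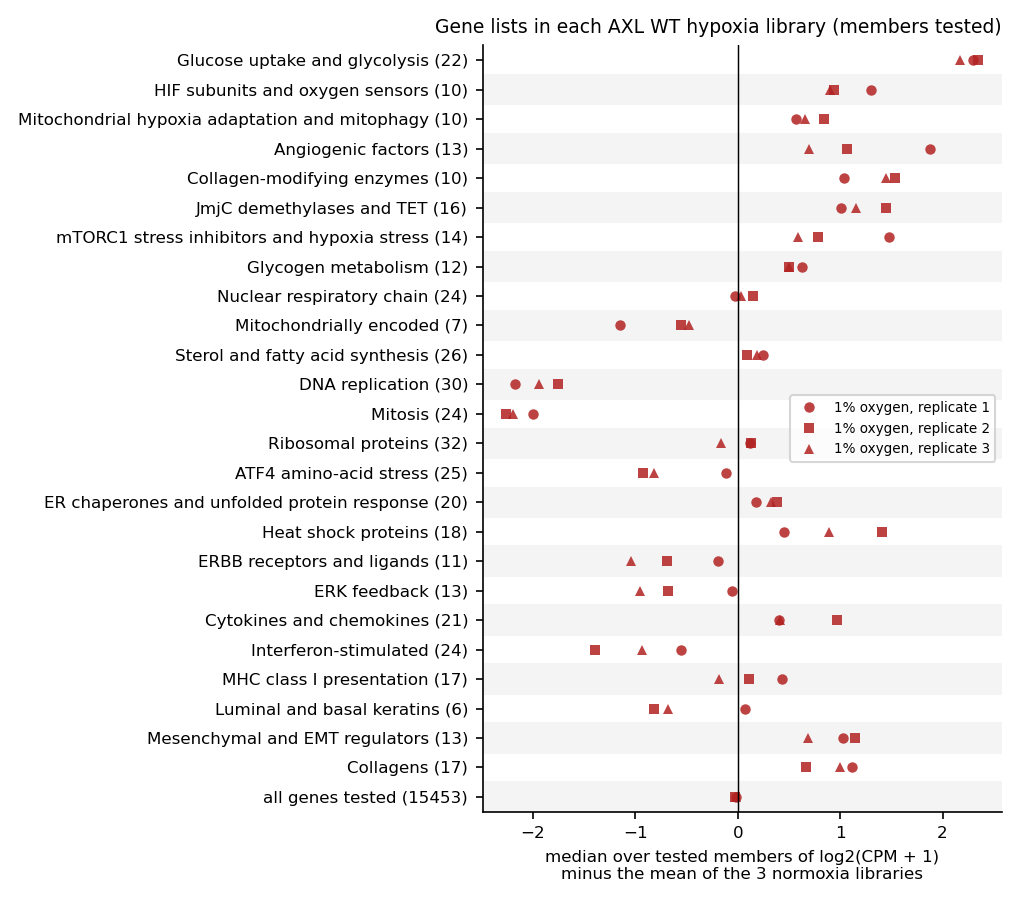
Median over the tested members of each gene list of the difference in log2(CPM + 1) between 1 hypoxia library and the mean of the 3 normoxia libraries, with circle, square and triangle for hypoxia replicates 1, 2 and 3 and the number of tested members in brackets. Glycolysis lies right of 2 and mitosis at −2 or below in all 3 libraries, while all genes tested lie near 0; for the angiogenic, heat shock, keratin and interferon lists the libraries lie further apart.

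Some of the tumour cell markers were uneven. Keratin 8, Krt8, read 823, 903 and 916 CPM in normoxia and 906, 359.5 and 459.9 CPM in hypoxia, and Krt18 read 1047, 1128 and 1140.3 CPM and 1268, 414 and 420.4 CPM. Replicate 1 was at or above normoxia and replicates 2 and 3 were below it, and neither gene was called (−0.61 ± 0.33, adjusted p = 0.157 and −0.66 ± 0.43, adjusted p = 0.244). Without replicate 1 both were called lower (−1.12, adjusted p = 0.00074, and −1.43, adjusted p = 8.1e-05). Krt7 fell, from 638, 662 and 753 CPM to 283, 105 and 144 CPM (−1.95 ± 0.35, adjusted p = 0.00442). Of 22 junction genes 7 rose and 3 fell, or 1 without normoxia replicate 2 and 7 without hypoxia replicate 1. The desmosome genes Dsp, from 61.6, 63.6 and 59.2 CPM to 511, 420.2 and 369.6 CPM (2.82 ± 0.15, adjusted p = 7.96e-05), and Pkp2 (2.15 ± 0.21, adjusted p = 0.000466) and the tight junction gene Cldn4 (1.72 ± 0.20, adjusted p = 0.000914) rose. E-cadherin, Cdh1, went from 10.3, 13.3 and 10.4 CPM to 51.9, 25.6 and 22.5 CPM (1.56 ± 0.34, adjusted p = 0.00885) and Epcam from 21.8, 26.0 and 21.7 CPM to 50.3, 115 and 46.9 CPM (1.61 ± 0.36, adjusted p = 0.00973), both low in normoxia and higher in every hypoxia library.

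Genes of the mesenchymal state rose beside them (7 rose and 2 fell of 13 tested, or 1 when any library but hypoxia replicate 1 was left out, median 0.89). The repressors of E-cadherin Snai2 (2.50 ± 0.33, adjusted p = 0.00141) and Zeb1, from 51.3, 49.9 and 51.9 CPM to 174, 114 and 137 CPM (1.47 ± 0.17, adjusted p = 0.000917), rose, while Zeb2 fell (−0.71 ± 0.15, adjusted p = 0.00692). Tenascin C, Tnc, went from 9.77, 8.46 and 9.02 CPM to 29.2, 127 and 84.5 CPM (3.15 ± 0.50, adjusted p = 0.00265). Vimentin, Vim, was abundant throughout at 2059, 2164 and 2340.1 CPM and 5598, 2556 and 3222 CPM and narrowly missed the threshold (0.79 ± 0.28, adjusted p = 0.0505), which it passed without hypoxia replicate 1 (adjusted p = 0.0418) or 2 (0.0176). Rises of Cdh1, Zeb1 and Snai2 thus occurred in the same libraries. Of 11 tested luminal regulators and milk protein genes 3 rose and 2 fell, or 1 without normoxia replicate 3 and 4 without hypoxia replicate 1. Among them the luminal factor Gata3 (1.67 ± 0.20, adjusted p = 0.000895) and the milk fat protein Mfge8 (1.49 ± 0.21, adjusted p = 0.00159) rose and kappa-casein, Csn3, fell (−1.88 ± 0.35, adjusted p = 0.00486). Of 5 tested basal and myoepithelial genes 4 rose, or 2 without normoxia replicate 1 or 2, and 1 fell. The latter, the neural crest and basal factor Sox10, went from 298, 324 and 283 CPM to 170.5, 98.5 and 160.0 CPM (−1.08 ± 0.21, adjusted p = 0.00619), lower in every hypoxia library.

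Of 17 tested collagens 11 rose and 2 fell, or none without normoxia replicate 1, 2 or 3 or hypoxia replicate 3 and 1 without hypoxia replicate 2 (median 1.28). Col8a1 went from 194, 197 and 202 CPM to 829, 801 and 779 CPM (2.02 ± 0.10, adjusted p = 6.73e-05) and the basement membrane gene Col4a1 from 187, 194 and 194 CPM to 547, 332 and 501 CPM (1.26 ± 0.19, adjusted p = 0.00224). The fibrillar collagen Col1a1 stayed low, at 1.03, 0.758 and 0.858 CPM and 24.9, 10.9 and 16.9 CPM (4.31 ± 0.37, adjusted p = 0.000288). None of these had overlapping groups. Of 17 matrix proteases and inhibitors 8 rose and 1 fell, or 5 without hypoxia replicate 1 and none without normoxia replicate 1, 2 or 3 or hypoxia replicate 3. The metalloprotease Adamts1 went from 24.1, 24.9 and 27.2 CPM to 989, 364 and 339.6 CPM (4.47 ± 0.47, adjusted p = 0.000566), highest in replicate 1. The plasminogen activator Plat rose too (2.05 ± 0.19, adjusted p = 0.00038). Of 11 integrin genes 5 rose and 3 fell (1 when any library but hypoxia replicate 1 was left out), with Itga2 (2.38 ± 0.18, adjusted p = 0.000176), the fibronectin receptor subunit Itga5 (1.53 ± 0.20, adjusted p = 0.00138) and Itgb1 (0.66 ± 0.12, adjusted p = 0.00423) up and Itgb8 down (−1.93 ± 0.28, adjusted p = 0.00196).

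Markers of other cell types were low but not constant. The 7 leukocyte markers summed to between 11.3 and 12.8 CPM in normoxia and to 16.2, 169 and 52.1 CPM in hypoxia, with Csf1r making up most of the difference and 5 of the 7 below 1 CPM in each hypoxia library. The pan-leukocyte gene Ptprc had at most 5 counts in any library and the T cell gene Cd3e at most 1. The 8 endothelial markers summed to at most 3.10 CPM in any library, with Tie1 at 0 counts in all 6. The 7 fibroblast markers summed to between 69.6 and 76.2 CPM in normoxia and between 80.3 and 105.5 CPM in hypoxia. The 7 breast epithelial tumour markers summed to between 3959 and 4008 CPM in normoxia and to 5193, 1166 and 1489 CPM in hypoxia, and Erbb2, Krt8 and Krt18, which are among them, made up most of each sum. Of the others Epcam and Cdh1 were higher and Krt7 was lower in every hypoxia library, and Krt19 stayed below 1 CPM. The 5 adipocyte markers, with Lep at 0 counts, were nearly all Fabp4, at 35.8, 37.0 and 43.7 CPM and 30.5, 9.41 and 10.3 CPM (−1.21 ± 0.45, adjusted p = 0.0612, and −2.00, adjusted p = 0.000101, without hypoxia replicate 1). The part of these markers in the other results was not tested.

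The widest changes among genes with at least 20 CPM in the higher group were rises from near silence. Sprr2e, a small proline-rich protein of the epidermal barrier with close paralogs, had no count in the 3 normoxia libraries and 7.03, 43.3 and 22.2 CPM in hypoxia, at least 1289-fold more against a floor of 3 counts over the group. Nitric oxide synthase 2, Nos2, went from 0.0746, 0.155 and 0.0731 CPM to 131, 96.9 and 91.7 CPM (10.02 ± 0.34, adjusted p = 4.68e-05; ENSMUSG00000020826, chromosome 11, 78920787 to 78960254). Among the 12 widest rises Nos2 was the only one not lowest in replicate 1 of the hypoxia libraries. The protease-like Prss35 read 19.6, 302 and 224 CPM in hypoxia (10.48 ± 1.29, adjusted p = 0.00105), the membrane oestrogen receptor Gper1 72.2, 457 and 191 CPM (8.88 ± 0.84, adjusted p = 0.000408) and the growth factor Bmp6 8.77, 74.2 and 32.2 CPM (8.64 ± 1.01, adjusted p = 0.000895), each from below 1 CPM. Sprr1a, another barrier protein, read 50.7, 254 and 139 CPM (8.39 ± 0.72, adjusted p = 0.000284), the betaine transporter Slc6a12 11.1, 114 and 49.0 CPM (7.58 ± 0.96, adjusted p = 0.00115) and the sulfotransferase Gal3st1 48.4, 114 and 104 CPM (7.02 ± 0.46, adjusted p = 0.00012). For all of these replicate 2 was the highest hypoxia library. The others were Csf1r, Scn11a, P2ry14 and Cilp2, of which Cilp2 (0.749, 61.1 and 6.75 CPM in hypoxia, 6.96 ± 1.64, adjusted p = 0.0121) lost its call without normoxia replicate 1, 2 or 3 (adjusted p = 0.0514, 0.0523 and 0.0523).

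The 12 widest falls were led by Cdca7, a MYC and E2F target, from 27.3, 25.8 and 27.0 CPM to 1.62, 0.365 and 0.709 CPM (−4.89 ± 0.51, adjusted p = 0.000566), the kinesin Kif15, from 38.9, 40.0 and 37.4 CPM to 2.83, 1.62 and 1.97 CPM (−4.18 ± 0.25, adjusted p = 9.69e-05), and the folate enzyme Shmt1, from 40.8, 38.0 and 49.0 CPM to 2.44, 2.92 and 2.88 CPM (−3.95 ± 0.19, adjusted p = 6.09e-05). No hypoxia library came near normoxia for any of them. The chromatin protein gene Hmgb3, the mitosis genes Sgo1, Kif11 and Trip13, and the replication genes Rrm2 and Pclaf also belonged here, with log2 fold changes from −3.55 ± 0.24, adjusted p = 0.000139, to −3.82 ± 0.36, adjusted p = 0.000416. The remaining ones were the alcohol dehydrogenase Adh7, from 77.7, 64.6 and 89.0 CPM to 4.76, 4.54 and 8.90 CPM (−3.67 ± 0.31, adjusted p = 0.000284), Klhdc7a (−3.69 ± 0.67, adjusted p = 0.00448) and Usp17la (−3.69 ± 0.24, adjusted p = 0.000109), the last a member of a family of close copies whose counts are uncertain. Every one of these genes was lower in all 3 hypoxia libraries than in any normoxia library, as the choice of genes required.

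The hypoxia libraries differed by more than 4-fold at 1560 genes (10.2% of genes with a count in all 3), against 0.618% in normoxia. At these genes replicate 1 was the highest for 572 and the lowest for 875, replicate 2 the highest for 571 and the lowest for 554, and replicate 3 the highest for 417 and the lowest for 131. Replicate 3 was thus mostly in between. Ccn2, the connective tissue growth factor and a YAP target, showed the widest excess of replicate 1, with 628, 615 and 718 CPM in normoxia and 3215, 19.0 and 166 CPM in hypoxia (0.79 ± 1.41, adjusted p = 0.667). The metallothionein Mt2 read 857, 65.0 and 71.9 CPM in hypoxia against 98.7, 98.7 and 128 CPM in normoxia (1.61 ± 0.97, adjusted p = 0.205). The RNA-decay factor Zfp36l2 read 281, 25.2 and 39.6 CPM against 323, 313 and 378 CPM (−1.55 ± 0.84, adjusted p = 0.167). None of these was called, and replicates 2 and 3 lay below normoxia for all 3 genes. The clock output genes Nr1d1, with 352, 37.3 and 53.9 CPM in hypoxia against 54.9, 62.0 and 50.4 CPM, and Dbp, with 85.5, 7.64 and 13.6 CPM against 24.3, 31.2 and 22.1 CPM, had the same order and were not called (1.41 ± 0.80, adjusted p = 0.183 and 0.46 ± 0.82, adjusted p = 0.666). All of these genes were chosen for the excess of replicate 1 over replicates 2 and 3. Its place as the highest hypoxia library was thus fixed by the choice, and fits without it are no independent test. Without replicate 1 the log2 fold change was −2.84 for Ccn2, −0.69 for Mt2, −3.40 for Zfp36l2 and −1.30 for Dbp. The direction of Ccn2, Mt2 and Dbp therefore rests on that library. Erbb2 and Lce1g also belong to this set, and Lce1g stood at −2.82 without replicate 1.

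In the opposite direction, the ion channel subunit Unc80 read 4.47, 148 and 84.7 CPM in hypoxia against 0.746, 0.952 and 0.694 CPM in normoxia (6.63 ± 1.22, adjusted p = 0.00471). The surface sialomucin Cd34 read 3.77, 51.0 and 45.3 CPM against 0.354, 0.389 and 0.566 CPM (6.25 ± 1.01, adjusted p = 0.00278), and trichohyalin, Tchh, 12.1, 274 and 84.0 CPM against 5.52, 4.59 and 5.83 CPM (4.54 ± 1.02, adjusted p = 0.0101). Although replicate 1 was far lower than replicates 2 and 3, it was still above normoxia for these genes. That did not hold for the sugar epimerase Galm, with 1.30, 67.1 and 15.3 CPM against 2.01, 1.81 and 1.88 CPM (3.87 ± 1.19, adjusted p = 0.0316), whose call ended without normoxia replicate 1, 2 or 3 (adjusted p = 0.0948, 0.0996 and 0.103) or hypoxia replicate 2 or 3 (0.102 and 0.0624). Nor did it hold for the kinetochore gene Kntc1, which read 13.2, 204 and 86.1 CPM against 69.9, 70.8 and 65.8 CPM and was not called (0.55 ± 0.77, adjusted p = 0.58). Its log2 fold change was 1.05 without replicate 1. The genes of this set were chosen for the deficit of replicate 1, so its place as the lowest hypoxia library was fixed by the choice. Csf1r, Prss35 and Scn11a complete the set.

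**Figure D4:**
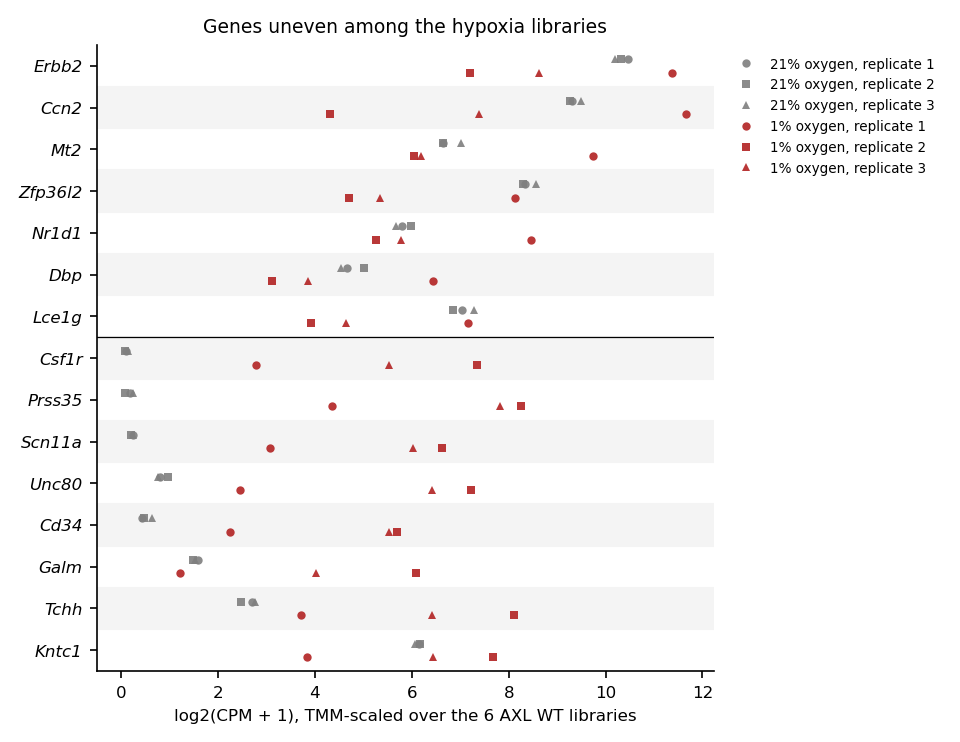
Level in each AXL WT library, as log2(CPM + 1), of 7 of the 8 genes with the widest excess of hypoxia replicate 1 (above the line) and the 8 with the widest deficit (below the line); grey marks 21% oxygen, red 1% oxygen, and circle, square and triangle are replicates 1, 2 and 3. The grey symbols cluster for each gene while the red ones spread over 2 or more units, with the circle at the right end above the line and at the left end below it.

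The response of AXL WT cells was then compared with that of AXL KO cells over all 12 libraries, as the difference of both log2 fold changes (WT minus KO, each hypoxia over its own normoxia). Of 16767 genes 4830 differed (28.8% called), 2566 with the WT response above the KO response (15.3%) and 2264 with it below (13.5%). Without WT hypoxia replicate 1 the number was 8417. The fit shares 1 spread over groups that differ in it, with a biological coefficient of variation of 0.367 in AXL WT hypoxia and at most 0.0892 elsewhere. Its p-values may therefore be too small. By voom with a weight per group 4842 genes were called, of which 3987 were among the 4830. The Axl response itself was not called as different (−0.20, adjusted p = 0.463), on a level of a few CPM in AXL KO.

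The glycolysis genes responded more widely in AXL WT. Of 22 tested 18 were called with the WT response above and none below. Pfkfb3 differed by 2.99 ± 0.21, adjusted p = 4.49e-06, Pfkp by 1.92 ± 0.20, adjusted p = 5.51e-05 and Aldoa by 0.95 ± 0.14, adjusted p = 0.000569, and each rose in both genotypes. Vegfa (−0.15 ± 0.18, adjusted p = 0.566), Egln1 (0.17 ± 0.20, adjusted p = 0.567) and Kdm3a (0.31 ± 0.23, adjusted p = 0.343) were not called. Car9 differed in the other direction (−1.61 ± 0.36, adjusted p = 0.00645). Cell division genes differed in the other direction, where 26 of 30 replication genes and 23 of 24 mitosis genes were called with the WT response below the KO response and none above. Mki67 stood at 342, 319.9 and 307 CPM and 84.5, 88.0 and 64.4 CPM in AXL WT and at 88.7, 107 and 89.6 CPM and 65.8, 106 and 82.0 CPM in AXL KO, scaled over the 12 libraries (−1.86 ± 0.24, adjusted p = 0.000209). Kif11 stood at 102, 111 and 108 CPM and 11.02, 6.75 and 7.89 CPM in AXL WT and at 18.7, 27.6 and 20.6 CPM and 14.2, 22.3 and 19.9 CPM in AXL KO (−3.40 ± 0.30, adjusted p = 2.05e-05). For both genes every AXL KO library at 21% oxygen lay below every AXL WT library at 21%. For Kif11 the AXL KO libraries stayed above the AXL WT hypoxia libraries.

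Among ER chaperones, of 20 tested 18 were called with the WT response above. Hspa5 stood at 944, 1089 and 967 CPM and 1394, 2314 and 1592 CPM in AXL WT and at 3718, 1874 and 1986 CPM and 516, 546 and 563 CPM in AXL KO (3.04 ± 0.35, adjusted p = 0.000107), with opposite directions in WT and KO libraries. Of 21 cytokines and chemokines 10 were called above and none below. Cxcl5 stood at 20.2, 17.5 and 25.5 CPM and 85.9, 84.2 and 120.1 CPM in AXL WT and at 149.8, 220.0 and 151 CPM and 3.61, 3.79 and 4.51 CPM in AXL KO (7.65 ± 0.31, adjusted p = 3.43e-07), with opposite directions in both genotypes. Ptgs2 went from 74.0, 50.2 and 47.4 CPM to 189.7, 174 and 198 CPM in AXL KO, a far smaller step than in AXL WT (5.06 ± 0.43, adjusted p = 1.56e-05). Of 32 ribosomal protein genes 19 were called with the WT response below. Cdkn2a, which rose in AXL WT, and its neighbour Cdkn2b, which went from 23.6, 26.9 and 25.5 CPM to 61.6, 81.6 and 67.0 CPM (1.47 ± 0.15, adjusted p = 0.000545), had 0 counts in all 6 AXL KO libraries, so no response can be compared there.

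**Figure D5:**
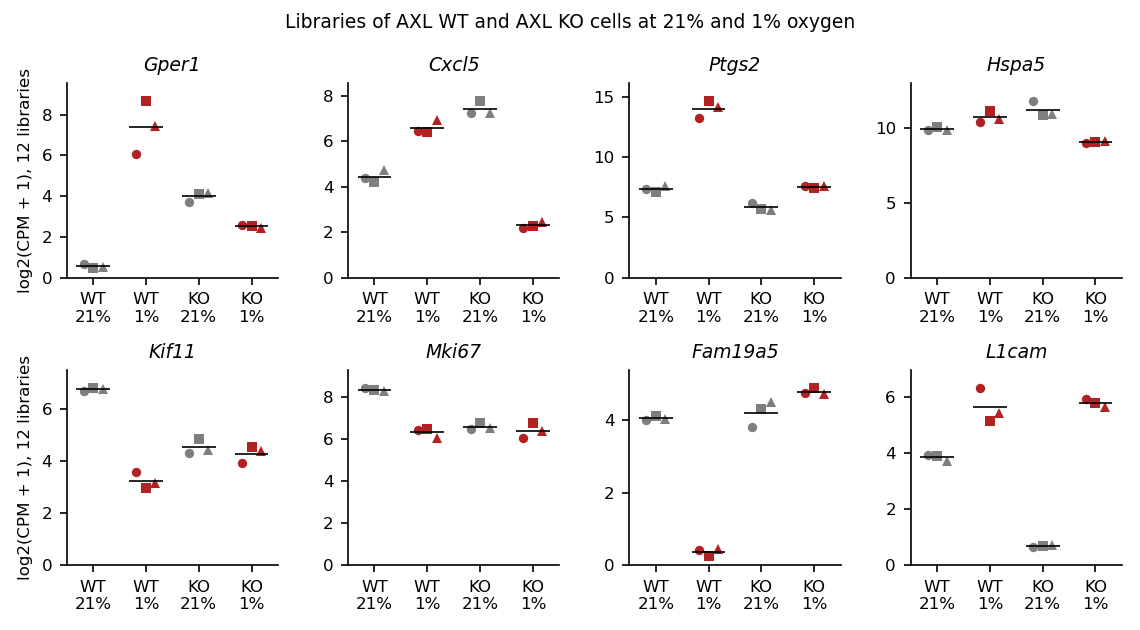
Level of 8 genes in all 12 libraries as log2(CPM + 1), scaled over the 12 libraries, with grey for 21% oxygen, red for 1% oxygen, circle, square and triangle for replicates 1, 2 and 3, and a bar at the mean of the 3 points. Gper1, Cxcl5 and Hspa5 go up in AXL WT and down in AXL KO, Kif11 and Mki67 go down in AXL WT from a level that AXL KO does not reach, and Fam19a5 goes down in AXL WT alone.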

How the data were processed

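RNA was sequenced as fragments with both ends read. Per the submitters' processing notes, reads were checked with FastQC 0.11.5, aligned to GRCm38 with STAR 2.5.1b and counted with featureCounts (1.4.6 in the notes, 1.6.0 per the file headers); DESeq2 1.12.3 is also named there. Per the file headers, the deposited counts are fragments per gene of Ensembl release 93, strand setting 2, without chimeric or multi-mapped reads. The deposited counts were used as they are, and groups were taken from sample titles.

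Counts were tested with edgeR 4.0.16 in R 4.3.3 (quasi-likelihood, robust, TMM scaling, low genes removed with filterByExpr) on the 6 AXL WT libraries, and on all 12 for the comparison of genotypes. Calls required an adjusted p (Benjamini-Hochberg) below 0.05. CPM and log2 values were computed from those counts, with 1 added before log2 in plots and library medians. Promoter sequences are from RefSeq, and windows with more than a short annotated exon were left out. Genes with a printed window were also required to hold ACGTG or GCGTG in it. The tests were also run on simulated counts, with even spread and with wider spread in hypoxia. Far fewer genes changed there than were called here, so that run does not settle the error rate of these calls. Alternatives used limma 3.58.1 and DESeq2 1.42.0.

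The genes named are Axl and Erbb2, the 12 widest rises and falls called, without overlap of the groups and with at least 20 CPM in the higher group, up to 5 members of each of 47 lists with the smallest p, members with a role described, the 8 genes most uneven in each direction with at least 50 CPM, and the 5 widest interactions in each direction. Of these, 1 gene is not reported here. The libraries, lists and named members were chosen with earlier results of these data known, so no list was tested as a set. Libraries of the same replicate number did not deviate together from their group means (correlations −0.00638, −0.0923 and 0.0448). With normoxia libraries so close to each other, this check cannot exclude a pairing that the labels do not give.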

Additional observations from a re-analysis of the deposited data

Results flagged for a closer look

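The following genes stood out because their response to 1% oxygen differed between AXL WT and AXL KO cells by edgeR's interaction test, as did 4830 genes in all. Values are the WT minus the KO log2 fold change over the 12 libraries. The membrane oestrogen receptor Gper1 differed by 10.5, with 0.617, 0.391 and 0.436 CPM in normoxia and 66.0, 411 and 173 CPM in hypoxia in AXL WT and 12.1, 16.5 and 17.1 CPM and 5.09, 4.79 and 4.36 CPM in AXL KO. The matrix genes Ogn (8.64) and Matn4 (7.32) were under 1 CPM in AXL WT normoxia, and Ogn reached 0.221, 29.6 and 7.79 CPM in AXL WT hypoxia. Matn4 averaged only 0.986 CPM in AXL WT hypoxia. In AXL KO the mean of Ogn was 149.7 CPM in normoxia and 69.1 CPM in hypoxia, and that of Matn4 43.1 and 5.28 CPM. Without replicates 2 and 3, which leaves 1 AXL WT hypoxia library, the difference of Ogn was 2.84. The unstudied transcript D630039A03Rik differed by 8.33, also almost absent from hypoxia replicate 1 (0.375, 21.4 and 4.86 CPM), and was not called without a filter or by limma-voom (adjusted p = 0.0627 and 0.0685). Its mean was 0.00582 CPM in AXL WT normoxia, and 7.4 CPM in normoxia and 24.3 CPM in hypoxia in AXL KO. The chemokine Cxcl5 differed by 7.65.

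In the other direction the cytochrome P450 gene Cyp2s1 differed by −7.19, with 0.304, 0.207 and 0.312 CPM and 55.5, 45.5 and 46.1 CPM in AXL KO and under 0.1 CPM in every AXL WT library; without WT normoxia replicate 2 it was not called (adjusted p = 0.0939). The secreted protein gene Fam19a5 differed by −6.30, with 14.9, 16.4 and 15.3 CPM and 0.331, 0.188 and 0.353 CPM in AXL WT and 13.1, 18.9 and 21.5 CPM and 26.0, 28.6 and 25.5 CPM in AXL KO. Lce1g, of a family of close copies, differed by −4.78, with 129, 12.7 and 21.9 CPM in AXL WT hypoxia, and was not called without KO normoxia replicate 1 or 3 or KO hypoxia replicate 1 (adjusted p = 0.0536, 0.0648 and 0.0562). Its means in AXL KO were only 0.076 CPM in normoxia and 0.927 CPM in hypoxia, with a KO log2 fold change of 3.57. The tetraspanin Tspan15 differed by −4.71 and stood under 1 CPM in every AXL WT library, and was not called by voom with a weight per group (adjusted p = 0.074). Its means in AXL KO were nearly equal, at 47.8 CPM in normoxia and 46.5 CPM in hypoxia. Several of the differences flagged here thus rest on values near the floor in 1 genotype. The adhesion gene L1cam differed by −4.55 and rose in both genotypes, from 14.3, 13.8 and 12.1 CPM to 79.1, 34.3 and 41.8 CPM in AXL WT and from 0.554, 0.621 and 0.624 CPM to 59.5, 54.4 and 49.1 CPM in AXL KO.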

How the results depend on the processing

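The number of genes called in AXL WT (7600) was 7596 with RLE size factors, 8064 by library size alone, 7696 without a filter, 5502 with at least 5 CPM in 3 libraries, 8307 by DESeq2, 7781 by limma-voom, 7377 with a weight per group and 10035 in the fit of all 12 libraries. It was 2432 against a minimum fold of 2, between 4855 and 10302 with 1 library left out and 11964 without AXL WT hypoxia replicates 2 and 3, where the lone library is assumed to vary like the normoxia group. Interaction calls (4830) numbered 933 against a minimum fold of 2, between 3582 and 8417 with 1 library left out (8417 without WT hypoxia replicate 1), and 3933 to 6655 under the other alternatives. With the replicate number as a block 6736 genes were called in AXL WT and 4521 in the interaction. The numbers do not pair the libraries. Leaving out hypoxia replicate 1 removed the library that stood apart on the second principal component, and the cause of the shifts was not tested.

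Of 211 named genes 155 kept their direction and their side of the threshold under every alternative. The log2 fold change of Erbb2 (−0.28) was −2.27 and called without WT hypoxia replicate 1, and turned to 0.22 without WT hypoxia replicate 2, 0.10 without replicate 3 and 1.02 without both. Without both, Krt8 and Krt18 turned to 0.025 and 0.18, Lce1g to 0.070, Galm to −0.56 and Kntc1 to −2.40. Without replicate 1 alone, Ccn2 turned to −2.84 (1.36 without replicate 2), Mt2 to −0.69 (2.09 without replicate 2), Nr1d1 to −0.31 (1.85) and Dbp to −1.30 (0.93), and Kntc1 ran from −0.48 without replicate 2 to 1.05 without replicate 1. Under limma-voom, a weight per group and the replicate block, in that order, Ccn2 was −1.58, −1.58 and −1.83, Dbp −0.29, −0.29 and −0.35, and Kntc1 −0.17, −0.17 and −0.073, none of them called. Counts of calls within lists moved by over 1.5 times in 333 of 1598 recalculations, and their direction of change is not settled for list medians close to 0. At 3 libraries a group and the spread seen at 1% oxygen, genes of modest change can be missed.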

Other observations

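A set of 12 genes known from osmotic stress was looked at after its first members were seen among the widest rises, so the values are a description. Of these 11 were called higher in AXL WT hypoxia, beside 25.4% of all genes, and 9 in AXL KO hypoxia in the fit of all 12 libraries, beside 27.3% of all genes. Aldose reductase, Akr1b3, which makes the osmolyte sorbitol, went from 67.0, 56.5 and 77.6 CPM to 1179, 5794 and 4669 CPM in AXL WT (5.86 ± 0.63, adjusted p = 0.000627) and from 14.0, 16.5 and 12.6 CPM to 101, 88.8 and 96.3 CPM in AXL KO. Hypoxia replicate 1 was the lowest of the AXL WT hypoxia libraries, and all lay far above normoxia. The water channel gene Aqp1 went from 75.5, 70.3 and 89.7 CPM to 1937, 2053 and 1626 CPM in AXL WT (4.58 ± 0.17, adjusted p = 4.68e-05), nearly even across the libraries. In AXL KO it went from 14.1, 12.2 and 13.0 CPM to 792, 666 and 695 CPM, a wider step (5.78 in the fit of all 12 libraries). The taurine transporter Slc6a6 rose in AXL WT (1.59 ± 0.11, adjusted p = 0.000151) without overlap, and in AXL KO as well (1.44 in the fit of all 12 libraries). The sodium pump subunit Atp1b1 went from 11.95, 10.9 and 14.7 CPM to 53.1, 566 and 194 CPM (4.44 ± 0.82, adjusted p = 0.00471). Nfat5, the transcription factor of this response, read 312, 259.8 and 229 CPM in normoxia and 471, 1172 and 475 CPM in hypoxia (1.40 ± 0.37, adjusted p = 0.0192). Its replicate 2 stood far above the other hypoxia libraries, and it was not called in AXL KO (adjusted p = 0.62). The inositol carrier Slc5a3 was the 1 gene not called in AXL WT (0.86 ± 0.36, adjusted p = 0.0845).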
